A study of Mus musculus with 30 samples.

Results

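The effect of losing ERRγ was compared between the stomach and the kidney of newborn mice, gene by gene, as the null minus wild-type difference in stomach minus the null minus wild-type difference in kidney. This quantity, a tissue-by-genotype interaction, is negative where a transcript fell more or rose less in stomach than in kidney, and positive in the opposite case. The comparison used 12 of the 30 arrays of the series, 3 each of wild-type stomach, ERRγ-null stomach, wild-type kidney and ERRγ-null kidney. All of these mice were neonatal, of a mixed SV129/C57BL/6 background and of unknown gender, and were kept on standard chow; the label "null" was given without the allele's construction. The values are log2 MAS5 signals of MOE430A probe sets, so a difference of 1 is a 2-fold change. Of 22626 probe sets, 15125 were bright enough on at least 3 of the 12 arrays to be tested. A probe set was counted as expressed in a wild-type tissue where its mean reached 7, which put 6403 in both tissues, 866 in stomach only, 1075 in kidney only and 6781 in neither. Many values lie close to that level: 1313 tested probe sets had a wild-type mean within 0.1 of 7 in 1 tissue or the other. Hnrnpu, Rab24 and Taok1 stood just inside it with their lower wild-type mean at 7, 7.01 and 7.01, and 1 probe set each of Pfdn1, Lpgat1 and Nrip1 just outside at 6.98, 6.96 and 6.95.

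ERRγ, the product of Esrrg, is an orphan nuclear receptor that binds DNA without a known natural ligand and, with PGC-1 coactivators, drives genes of mitochondrial oxidation. The gastric parietal cell secretes acid with a proton pump that exchanges potassium for protons, and potassium channels return that potassium to the lumen. In the kidney, the tubule recovers filtered salt, and the channel encoded by Kcnj1 recycles potassium in the thick ascending limb. The series names potassium homeostasis as its subject, and both tissues depend on oxidative metabolism for ion transport.

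The arrays held the transcripts of their tissues, with the pump gene Atp4a at 10.36 to 10.57 in wild-type stomach and 5.57 to 5.84 in wild-type kidney, and uromodulin Umod at 10.49 to 11.06 in wild-type kidney and 1.63 to 3.10 in wild-type stomach. Esrrg itself was dim on its 1 probe set, whose place relative to the deletion no source used here states, and it therefore checks no label. It read 5.93 to 6.03 in wild-type and 6.39 to 6.56 in null stomach, and 5.98 to 6.08 and 6.02 to 6.15 in kidney. The control probes of Gapdh and Actb showed a gap between their 3' and 5' ends, which grows as RNA is degraded or incompletely copied, of 3.22 ± 0.34 in the null stomach and 2.09 ± 0.43 in the wild-type stomach (SD, n = 3; exact two-sided permutation test p = 0.1, the smallest that 3 against 3 allows). In kidney it was 2.31 ± 0.10 in null and 2.4 ± 0.25 in wild-type arrays (exact two-sided permutation test p = 0.8). Serum albumin, Alb, a liver transcript, stood at 5.93, 10.25 and 11.90 in the wild-type stomach arrays and between 6.19 and 7.06 in the null ones. Xist was low in 1 array of each of the 4 groups, and this array had the same number in both tissues: wild-type 3, at 6.69 in stomach and 6.65 in kidney, and null 1, at 7.22 and 6.49, against 10.96 or more in all others. No label states whether replicate arrays were made from different animals, and the p-values therefore cover the spread of these arrays alone, part of which may be technical. In such whole-tissue RNA, fewer cells of a type and less RNA per cell cannot be told apart.

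**Figure D1:**
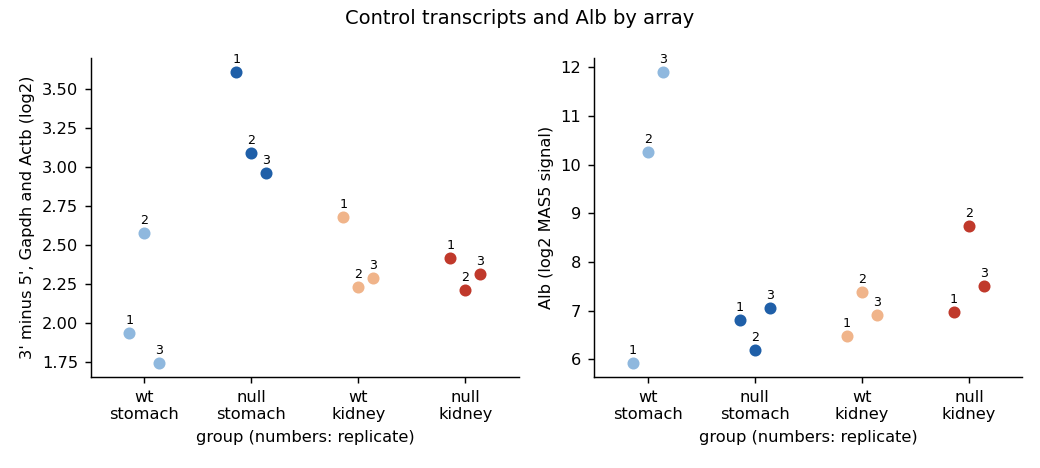
The left panel plots the mean 3' minus 5' difference of Gapdh and Actb (log2) and the right panel the Alb signal (log2) of each array, by group, with the replicate number at each point. The 3 null stomach arrays have a control difference of 2.96 or more, above all 9 other arrays, and Alb is high in wild-type stomach arrays 2 and 3.

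The stomach and kidney differed in how they responded. The interaction passed the test (limma, Benjamini-Hochberg adjusted p under 0.05 over all tested probe sets) at 510 of 15125 probe sets, 3.37% of them, 303 negative (2%) and 207 positive (1.37%). At an unadjusted p under 0.05 there were 3005. By size, most calls were a response in stomach with less or none in kidney: the effect was larger in stomach at 472 of the 510 and larger in kidney at 38. By the tests of each tissue in the same limma fit, 476 of them were called in stomach and not in kidney, 16 in kidney and not in stomach, 3 in both and 15 in neither. In all, 3863 probe sets were called in stomach, 1792 higher (11.8%) and 2071 lower (13.7%) in null, and 92 in kidney, 52 higher (0.344%) and 40 lower (0.264%). With the Gapdh control difference as a covariate 3 interaction calls were left, those of Atp4a, Atp4b and Mal. All 510 kept their direction, with a median size of 0.945 of the original and standard errors 1.57 times as large. The 510 were picked by their interactions on these same arrays, which favours a kept direction, so this is no separate check. Leaving out wild-type stomach array 3 gave 240 calls, leaving out null stomach array 2 gave 992, and the part of RNA quality in the count was not tested beyond this.

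Among the 6403 probe sets expressed in both wild-type tissues, 256 (4%) had a called interaction, 171 negative (2.67%) and 85 positive (1.33%), standing for 148 and 63 named genes. In the stomach-only class 57 of 866 were called (6.58%), 50 negative (5.77%) and 7 positive (0.808%), and in the kidney-only class 48 of 1075 (4.47%), 14 negative (1.3%) and 34 positive (3.16%). A transcript near background in a tissue cannot be seen to fall there, so the definition of the single-tissue classes bears on their balance. All classes were set by wild-type means, which are also subtracted in each effect. That bears on the balance of falls and rises in the class of both tissues too, to an extent not tested. In the class of neither tissue, 762 probe sets rose (11.2%) and 504 fell (7.43%) in null stomach. In genes of both tissues 761 probe sets rose (11.9%) and 1290 fell (20.1%) in null stomach, and 22 rose (0.344%) and 20 fell (0.312%) in null kidney. Of its 256 calls, 142 had effects of opposite sign in the 2 tissues and 114 of the same sign, although only 1 was called in each tissue separately with opposite directions. Over all 6403 probe sets the 2 effects had the same sign at 66.8%, with a Pearson r of 0.484 across probe sets, which are not independent of each other and share arrays. The median absolute effect was 0.25 in stomach and 0.13 in kidney.

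**Figure D2:**
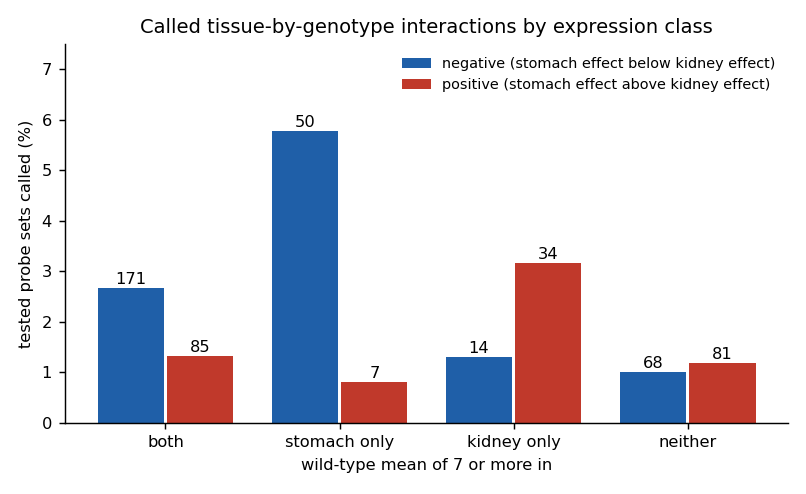
Bars give the percentage of tested probe sets with a called interaction in each expression class, negative in blue and positive in red, and the number above each bar is its count. Negative calls outnumber positive ones 171 to 85 in the class of both tissues and 50 to 7 in the stomach-only class, and positive ones outnumber negative ones 34 to 14 in the kidney-only class. The classes were set by wild-type means, which are also subtracted in each effect, and this bears on the balance.

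**Figure D3:**
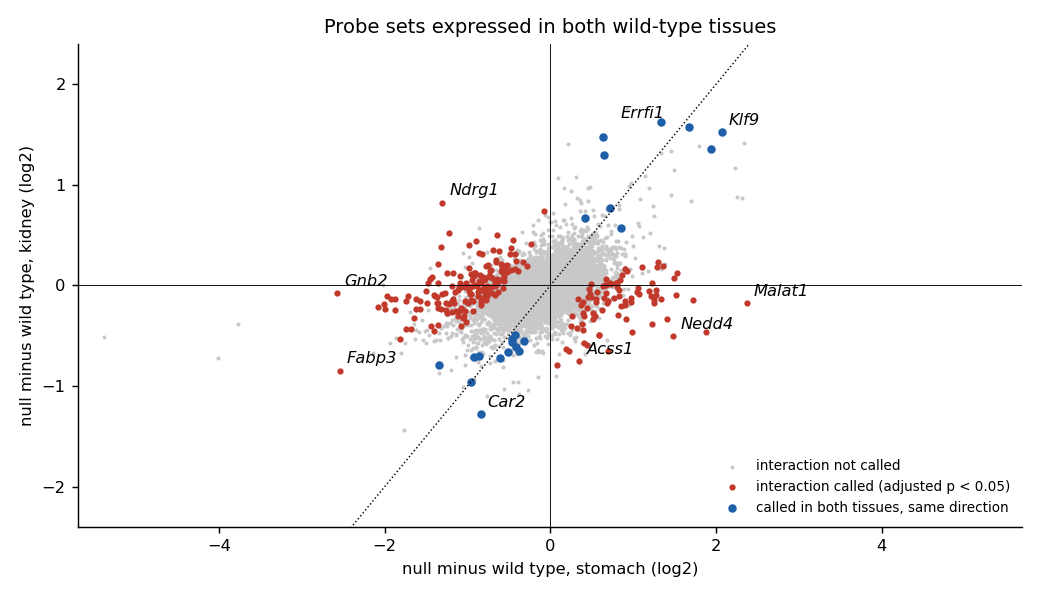
Each point is 1 of the 6403 probe sets expressed in both wild-type tissues, with the null minus wild-type difference (log2) in stomach on the horizontal and in kidney on the vertical axis. Called interactions (red) lie mostly along the horizontal axis, probe sets called in both tissues in the same direction (blue) lie near the dotted line of equal effects, and the 3 points farthest left are probe sets of Afp.

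Gnb2 and Ndrg1 had the largest called negative interactions among genes of both tissues; an Afp probe set had -3.38, not called (limma adjusted p = 0.121). Gnb2, a beta subunit of heterotrimeric G proteins, read 8.26, 8.32 and 8.24 in wild-type stomach and 5.23, 6.11 and 5.75 in null stomach, against 7.59, 7.72 and 7.92 in wild-type against 7.59, 7.65 and 7.76 in null kidney. The groups stood far apart in stomach and overlapped in kidney. Its interaction was -2.50 (SE 0.25, limma adjusted p = 0.000694). Ndrg1, a stress-responsive gene, fell in stomach from 7.51, 7.45 and 7.63 to 6.54, 6.23 and 5.89 and stood at 7.67, 7.85 and 7.71 in wild-type against 9.02, 8.22 and 8.46 in null kidney, where the difference of 0.82 did not pass (limma adjusted p = 0.0833). The groups did not overlap in either tissue and pointed opposite ways, with an interaction of -2.13 (SE 0.28), but 2 of the 4 other Ndrg1 probe sets had an interaction of the opposite sign.

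Fabp3, which carries fatty acids inside cells, was the one of these 10 genes with a lower mean in null in both tissues by more than 0.5. It read 7.44, 7.56 and 8.16 in wild-type against 5.10, 5.60 and 4.83 in null stomach, and 9.03, 8.52 and 8.33 in wild-type against 7.78, 7.88 and 7.68 in null kidney. Groups were separate in both tissues, and the difference was -2.54 in stomach, which passed, and -0.85 in kidney, which did not (limma adjusted p = 0.13). The interaction of -1.70 passed (SE 0.33, limma adjusted p = 0.0148). The other 7 lay between -1.86 and -1.70 and had kidney differences between -0.24 and 0.52, none called. They were Ptbp1, a splicing regulator, Lactb, a mitochondrial protein, Cct7 of the cytosolic chaperonin, the actin-binding profilin Pfn1, the poly(A) polymerase Tent5c, the proteasome subunit Psmb7 and the splicing factor Smu1. A second probe set of Cct7 was called in the same direction, whereas the only other probe sets of Ptbp1 and of Smu1 had the opposite sign. Ptbp1, Lactb and Tent5c lost their calls on leaving out single arrays, with adjusted p up to 0.0695, 0.0701 and 0.0687 (limma). For Ptbp1 these were wild-type stomach 3, wild-type kidney 1 and 2 and null kidney 2 and 3, for Lactb wild-type stomach 2 and 3, all wild-type kidney arrays and null kidney 2 and 3, and for Tent5c wild-type stomach 2 and 3, wild-type kidney 1 and 3 and null kidney 3. In turn, the calls of the other 7 genes held without each array.

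Malat1, a long noncoding RNA retained in the nucleus, had the largest called positive interaction in genes of both tissues. It read 8.76, 7.96 and 8.07 in wild-type against 10.86, 10.42 and 10.62 in null stomach, and 9.51, 9.70 and 9.34 in wild-type against 10.16, 8.93 and 8.94 in null kidney. Null stomach stood above wild-type stomach and above wild-type kidney on every array, and the kidney groups overlapped. The interaction was 2.54 (SE 0.41, limma adjusted p = 0.00586), and all 4 other Malat1 probe sets had the same sign, 3 of them called. Nedd4, a ubiquitin ligase that acts on membrane channels, read 9.61, 9.97 and 9.52 in wild-type against 11.12, 11.34 and 11.08 in null stomach, and 10.97 to 11.14 and 10.06 to 10.92 in kidney. It was thus higher in null stomach without overlap and, in kidney, lower in null without overlap, the latter by 0.50, which did not pass (limma adjusted p = 0.253). The interaction of Nedd4 was 1.98 (SE 0.25).

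The 8 further genes lay between 1.33 and 1.74. They were the kinase Taok1, Cab39, a scaffold of the kinase LKB1, the insulin-degrading enzyme Ide, Mal, a membrane protein of apical transport, the flavin monooxygenase Fmo2, the transcription factor Klf3, the zinc-finger protein Zfand5 and Nsa2 of ribosome assembly. Mal, read at 9.36, 8.83 and 9.25 in wild-type against 10.72, 10.52 and 10.67 in null stomach and at 8.99 to 9.45 over all 6 kidney arrays, was the only gene of both tissues whose call held with the Gapdh covariate, at 1.94 (limma adjusted p = 0.0312), and its other probe set was called in the same direction. Both other probe sets of Klf3 had the opposite sign, as did 1 of the 2 others of Nedd4 and 1 of the 3 others of Ide. Nsa2 lost its call without wild-type stomach array 3, wild-type kidney array 2 or null kidney array 3, at adjusted p up to 0.0549 (limma).

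Agreement between probe sets of a gene was limited in this class as a whole. Of 155 named probe sets with a negative call, 86 had another tested probe set for the gene, and at 48 of these (55.8%) every other one had the same sign, while 38 had 1 or more of the opposite sign. Of 68 with a positive call, 57 had another, and 34 of these (59.6%) were of 1 sign throughout. Another probe set was itself called in the same direction for 14 of the 86 and 8 of the 57.

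Fmo2 was the only gene with a positive call in both tissues whose upstream sequence held the full estrogen-related receptor element, here searched as TNAAGGTCA on both strands in the 250 bases before the start site. It is shown for that reason, from RefSeq promoters on GRCm38.p6 at chr1:162898494-162898743, minus strand, 5′ to 3′, with the half-site AGGTCA of nuclear receptors in capitals; the half-site is part of the full element and was added to the search after the data were seen.

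Fmo2: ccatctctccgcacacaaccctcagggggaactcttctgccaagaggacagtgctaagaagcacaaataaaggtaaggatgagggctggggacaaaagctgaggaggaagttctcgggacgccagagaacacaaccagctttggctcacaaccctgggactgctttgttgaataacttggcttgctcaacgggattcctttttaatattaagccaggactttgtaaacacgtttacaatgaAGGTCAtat

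The half-site of Fmo2 begins 9 bases before the start. Fmo2 read 7.99, 7.60 and 7.43 in wild-type against 9.32, 9.05 and 9.22 in null stomach, and 8.25 to 8.34 and 8.19 to 8.58 in kidney, so it was higher in null in stomach without overlap and overlapped in kidney. The interaction of Fmo2 was 1.40 (SE 0.21). The full element was found for 67 of 7502 tested genes with a promoter in the table (0.89%), 0 of 122 genes of both tissues with a negative call and 1 of 58 with a positive call (1.72%). The half-site was found for 1016 of the 7502 (13.54%), 16 of the 122 (13.1%) and 15 of the 58 (25.9%). These shares are descriptions with no test, and a match is not a binding site.

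In 4 genes of both tissues the response was called in kidney and not in stomach, with a called interaction. Gng12, a gamma subunit of G proteins, read 7.56, 7.91 and 7.66 in wild-type against 7.02, 7.11 and 6.64 in null kidney, a difference of -0.79 (limma adjusted p = 0.0273), against 0.08 in stomach. Ugt2b34, a glucuronosyltransferase, fell in kidney by 0.65 and Papss2, which makes the sulfate donor of sulfation, by 0.64, while Sec14l1, a lipid-binding protein, rose by 0.74. Their differences in stomach were 0.23, 0.19 and -0.07, none called. In each of the 4 genes the kidney groups did not overlap, and the interactions were 0.86, 0.88, 0.82 and -0.81.

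Opposite calls were made at 3 probe sets, 1 of them in a gene of both tissues. This was Acss1, which makes acetyl-CoA from acetate in mitochondria: it read 8.75, 8.64 and 8.68 in wild-type against 9.13, 8.76 and 9.23 in null stomach, and 8.10, 8.23 and 8.04 in wild-type against 7.42, 7.31 and 7.38 in null kidney. Null arrays were higher in stomach and lower in kidney without overlap, although null stomach array 2 was 0.01 from wild type. The interaction was 1.10 (SE 0.17, limma adjusted p = 0.00446), made of 0.35 in stomach and -0.75 in kidney. In limma fits of each tissue alone the stomach call of Acss1 (adjusted p = 0.0943) and the kidney call of Fgfbp1 (adjusted p = 0.092) did not pass, and both calls of Egfl6 did. Egfl6, a secreted matrix-binding protein under 7 in both wild-type tissues, rose by 0.83 in stomach and fell by 1.68 in kidney, and Fgfbp1, which binds fibroblast growth factors and was expressed in stomach only, was 0.89 lower in stomach and 1.07 higher in kidney.

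**Figure D4:**
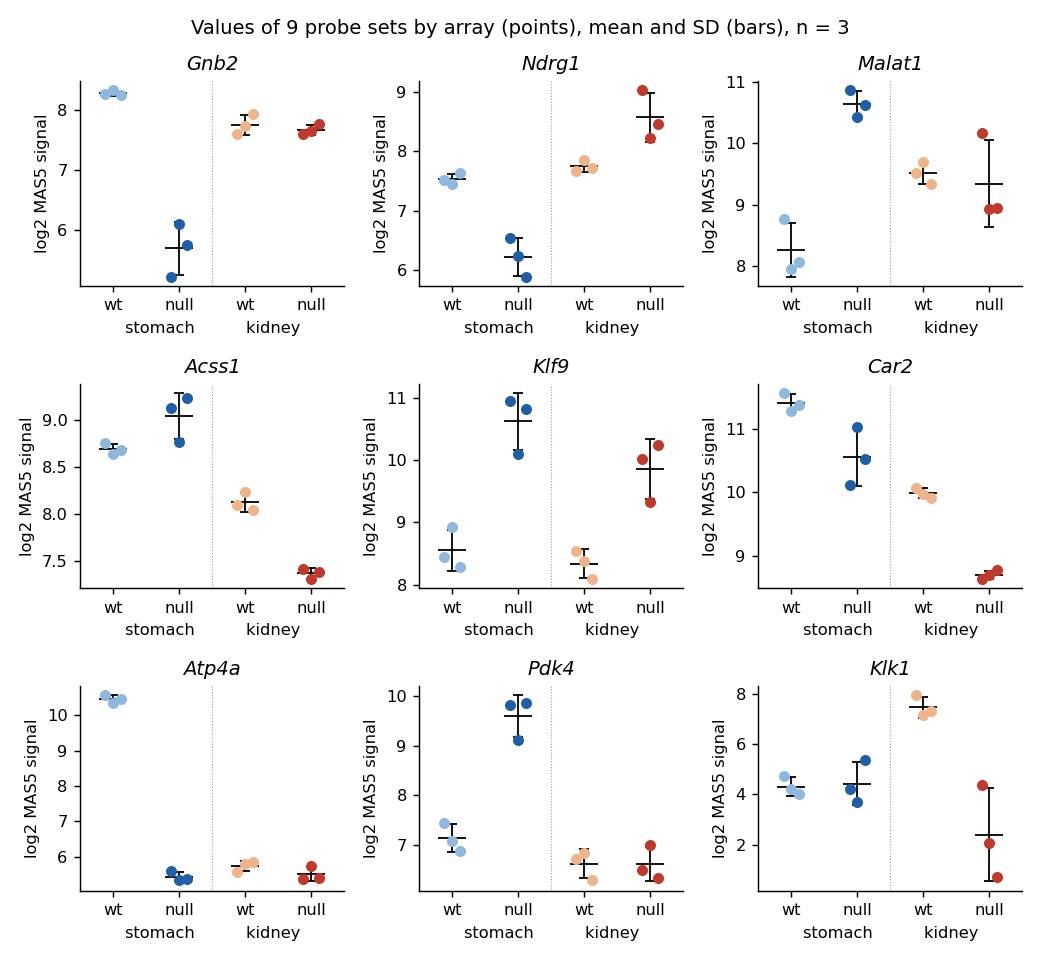
Each panel plots the log2 signal of 1 probe set on the 12 arrays (points), with the mean and SD of each group of 3 (bars). Gnb2, Ndrg1 and Atp4a are lower and Malat1 and Pdk4 higher in null stomach, Acss1 is higher in null stomach and lower in null kidney, Klf9 rises and Car2 falls in both tissues, and Klk1 falls in kidney.

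Responses that the tissues shared were few. Over all tested probe sets, 39 (0.258%) were called in both tissues in the same direction, 22 up and 17 down. Of the 39, 0 had a called interaction (limma), where 3.37% had one over all tested. Choosing calls of 1 direction in both tissues leaves less room for a called interaction, so this 0 does not show equal responses. In genes of both tissues there were 22 such probe sets (0.344%), 9 up and 13 down. Of the 42 kidney calls in this class, 36 had the same sign in stomach and 23 were called there. Null and wild-type groups did not overlap at any of the 39 in either tissue. The 39 were picked by calls on these same arrays, which favour such separation, so this is no separate check.

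Klf9 and Errfi1 had the largest shared rises in genes of both tissues, and both are known to be induced by glucocorticoids. Klf9, a transcription factor, read 8.45, 8.92 and 8.28 in wild-type against 10.94, 10.09 and 10.82 in null stomach, and 8.54, 8.38 and 8.09 in wild-type against 10.01, 9.32 and 10.24 in null kidney. It rose by 2.07 in stomach and 1.52 in kidney, and the interaction of 0.55 did not pass (SE 0.37, limma adjusted p = 0.437); 2 further Klf9 probe sets rose in both tissues. Errfi1, a feedback inhibitor of the EGF receptor, rose by 1.67 and 1.57. The metallothionein Mt2 rose by 0.72 and 0.77, the imprinted gene Peg3 by 0.42 and 0.67, the endoplasmic reticulum protein gene Herpud1 by 0.64 and 1.48, and Ccn2, a matricellular growth factor gene, by 0.65 and 1.30. Cebpd, a transcription factor expressed in stomach only by the level of 7, had the largest shared rise among named genes, chosen here after its values were seen: 7.82, 6.97 and 7.64 against 10.13, 9.48 and 10.35 in stomach, and 6.38, 6.31 and 6.72 against 9.11, 8.60 and 9 in kidney. The rises of 2.51 and 2.43 differed by 0.08 (SE 0.35). A dimmer Cebpd probe set differed more, with 1.42 in stomach, called, and 0.43 in kidney, not called, and an interaction of 0.99 that did not pass (SE 0.31, limma adjusted p = 0.0959). In limma fits of each tissue alone Ccn2 was not called in stomach, nor Mt2 in kidney. In 18 of the 22 shared rises null array 2 was the lowest null array in both tissues, and in 8 of the 17 shared falls it was the highest in both. Some of these probe sets are of the same gene, and the share over all tested probe sets was not computed.

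Shared falls included carbonic anhydrase Car2, which supplies protons for acid secretion in both organs. It read 11.56, 11.27 and 11.37 in wild-type against 10.12, 11.02 and 10.53 in null stomach, and 10.07, 9.97 and 9.92 in wild-type against 8.65, 8.70 and 8.78 in null kidney. The groups did not overlap, the falls were 0.84 and 1.28, and the interaction of 0.43 did not pass (SE 0.24, limma adjusted p = 0.336). Slc16a7, a transporter of lactate and pyruvate, fell by 0.96 in both tissues. Mitochondrial genes among the 13 shared falls were Atp5g1 and Atp5pb of ATP synthase, Ndufb2 and Ndufc1 of complex I, the fatty acid dehydrogenase Acadm and the channel Vdac1, with falls between 0.32 and 0.86 in stomach and between 0.50 and 0.71 in kidney. In limma fits of each tissue alone Ndufb2 was not called in kidney, nor was Tpm2. A brighter Atp5pb probe set was called in neither tissue (-0.08 and -0.20). The others named were Ube2c and Cks2, which act in cell division, Tpm2, Ywhah and Hsph1. Of the other 3 Tpm2 probe sets, 2 had an interaction of the opposite sign. The count of shared calls moved with single arrays, from 7 without wild-type kidney array 2 to 108 without null kidney array 2.

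Genes expressed in stomach only carried the largest negative interactions, led by the gastric proton pump and by the milk transcript Csn1s2a. Atp4a, the catalytic subunit of the pump, read 10.57, 10.36 and 10.46 in wild-type against 5.58, 5.33 and 5.37 in null stomach, and 5.36 to 5.84 on the kidney arrays. Null stomach and kidney overlapped at a level close to background. The interaction was -4.80 (SE 0.19, limma adjusted p = 4.09e-08). Atp4b, its beta subunit, read 11.03, 11.29 and 11.26 in wild-type against 6.15, 6.40 and 6.6 in null stomach, with an interaction of -5.41 (SE 0.42). These are the only stomach-only genes whose calls held with the Gapdh covariate, at -4.55 and -5.76 (limma adjusted p = 5.17e-05 and 0.0132). The promoter of Atp4a is shown as that of the gene with the smallest interaction p, at chr7:30711959-30712208 of GRCm38.p6, plus strand, 5′ to 3′.

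Atp4a: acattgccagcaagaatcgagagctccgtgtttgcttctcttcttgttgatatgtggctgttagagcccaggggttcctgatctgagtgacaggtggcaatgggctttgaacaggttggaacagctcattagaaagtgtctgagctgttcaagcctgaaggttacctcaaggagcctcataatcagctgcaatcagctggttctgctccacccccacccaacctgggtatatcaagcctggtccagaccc

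No AGGTCA stands in these 250 bases on either strand. Of the 11 tested genes of acid secretion, 5 had a called negative interaction and 0 a positive one. Negative calls were 2% over all tested and 5.77% in the stomach-only class, which held 4 of the 11. The median interaction of the list was -0.98 against 0.00 over all tested probe sets. Besides the pump the 5 were Kcnq1 (-1.29), a channel for luminal potassium, Slc4a2 (-1.52), the basolateral chloride-bicarbonate exchanger, and Kcnj15 (-0.98), an inward rectifier. Slc4a2 was the one of these 5 expressed in both tissues: 8.50, 8.26 and 8.26 in wild-type against 6.95, 6.77 and 6.94 in null stomach, and 7.18 to 7.52 on all kidney arrays. Kcne2, the subunit that partners Kcnq1, read 7.14, 6.75 and 6.64 in wild-type against 3.46, 1.08 and 4.73 in null stomach and under 4 in kidney. Its interaction of -4.50 did not pass (SE 1.48, limma adjusted p = 0.115), and with values under 5 raised to 5 it was -1.84 and passed (limma adjusted p = 0.000449). The floor set all kidney values of Kcne2 to 5, so the latter value is the stomach difference alone. Kcnq1 lost its call without wild-type stomach array 3 (limma adjusted p = 0.0532) and Kcnj15 without any single array other than wild-type stomach 2 or null stomach 1. Pgc, a chief-cell protease, fell in stomach by 1.06, and over the 13 tested genes of chief and mucous cells 0 interactions were called, with a median of -0.18.

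The milk proteins Csn1s2a, Csn2, Csn3 and Wap had interactions of -7.19, -4.45, -3.27 and -4.44. Wap read 9.20, 10.06 and 10.24 in wild-type against 5.38, 6.88 and 5.26 in null stomach. All 8 tested milk transcripts were called lower in null stomach (13.7% over all tested and 19.3% in the stomach-only class). Of the 8, 3 had a called interaction, Csn2, Csn3 and Wap (negative calls were 2% over all tested). The brighter Csn1s2a probe set had -7.02, not called (limma adjusted p = 0.0726). The summed level of the 8 (log2 of the summed linear signals) was 11.79 to 12.68 in wild-type and 7.79 to 10.08 in null stomach, and 7.84 to 8.48 in kidney. Values under about 5.4, the 40th percentile of an array, are near background, and Csn1s2a was there in null stomach on 2 of 3 arrays and in all kidney arrays: with values under 5 raised to 5 its interaction was -3.76. Csn1s2a and Csn2 lost their calls without wild-type stomach 2 or 3, null stomach 3 or null kidney 3, Csn1s2a also without wild-type kidney 1 and this Csn2 probe set without null stomach 1.

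Positive calls in stomach-only genes were 7. Pdk4, the kinase that shuts pyruvate dehydrogenase, read 7.45, 7.09 and 6.89 in wild-type against 9.82, 9.11 and 9.86 in null stomach, and 6.29 to 7.01 on all kidney arrays. The stomach groups stood apart and the kidney groups overlapped, and the interaction was 2.46 (SE 0.33, limma adjusted p = 0.00249). Gjb2, a gap junction protein, Rnf227, a RING finger protein, and Eppk1, a cytoskeletal linker of epithelia, had interactions of 1.59, 1.5 and 1.46. Serpinb1a, an inhibitor of serine proteases, had 3.43, made of 0.94 in stomach, not called, and -2.49 in kidney, called (limma adjusted p = 0.0247). In limma fits of each tissue alone these turned over, with adjusted p of 0.0156 in stomach and 0.0851 in kidney. Its kidney arrays were all near background, and raising values under 5 to 5 left an interaction of 1.05 (limma adjusted p = 0.0327). Lpp, an adhesion protein, was called at 1.02 with neither tissue called alone. Rnf227 lost its call without wild-type stomach 3. The call of Eppk1 held only without wild-type stomach 3, null stomach 2 or null kidney 1, and that of Lpp only without wild-type stomach 2, null stomach 2 or 3 or null kidney 2.

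In genes expressed in kidney only, the largest interaction was that of Klk1, tissue kallikrein, a protease of the distal tubule. It read 7.95, 7.16 and 7.32 in wild-type against 4.38, 2.07 and 0.71 in null kidney, and 3.70 to 5.37 over the stomach arrays. The kidney groups stood apart, and null kidney and both stomach groups were near background. The fall in kidney was 5.09 (limma adjusted p = 0.00975) and the interaction 5.21 (SE 1.01, limma adjusted p = 0.0154), which became 2.60 with values under 5 raised to 5. A second Klk1 probe set gave 4.29, called but not without wild-type kidney 1 or 3, and the remaining one 4.04, not called (limma adjusted p = 0.066). The promoter of Klk1 is shown as that of the gene with the largest fall in kidney among those named, at chr7:44225110-44225359 of GRCm38.p6, plus strand, with AGGTCA or its reverse complement in capitals.

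Klk1: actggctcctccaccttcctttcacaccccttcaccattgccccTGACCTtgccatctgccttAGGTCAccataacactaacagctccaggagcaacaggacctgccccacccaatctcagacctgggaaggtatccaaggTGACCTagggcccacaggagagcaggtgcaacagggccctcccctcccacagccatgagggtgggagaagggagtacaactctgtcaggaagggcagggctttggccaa

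Klk1 held 3 half-sites, beginning 206, 187 and 109 bases before the start, and no full element. Of the 17 tested genes of the thick ascending limb and distal tubule, 2 had a called positive interaction (1.37% over all tested), Klk1 and Cldn10 (1.03), a claudin of the paracellular cation path, and 0 a negative one. The median was 0.45, and 3 of the 17 fell in kidney (0.264% over all tested and 0.651% in the kidney-only class). They were these 2 and the prostaglandin receptor Ptger3 (-1.04), the last not called in a limma fit of kidney alone (adjusted p = 0.0869). Cldn10 read 8.51, 8.58 and 8.53 in wild-type against 7.81, 7.77 and 7.45 in null kidney and 5.32 to 5.74 in stomach. Kcnj1 read 8.74, 8.92 and 8.46 in wild-type against 7.64, 7.70 and 7.55 in null kidney without overlap. Its fall of 1.08 had an adjusted p of 0.136 in the limma fit of both tissues and 0.0155 in a limma fit of the kidney arrays alone, and its interaction of 0.99 did not pass (limma adjusted p = 0.218). Umod was in the same position, with differences of -1.02 and -1.45 in kidney on its 2 probe sets, adjusted p of 0.259 and 0.239 in the limma fit of both tissues, and 0.0466 and 0.0155 in kidney alone. Stomach arrays of Kcnj1 and Umod were all at 3.3 or below. With values under 5 raised to 5 the interactions of Kcnj1 (1.08) and of Umod (1.02 and 1.45) passed. The floor set all their stomach values to 5, so these values restate the kidney differences and do not compare the tissues.

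Of the 27 tested proximal tubule genes, 20 of them in the kidney-only class, 2 had a called positive interaction (1.37% over all tested and 3.16% in that class), the organic anion transporter Slc22a6 (1.96) and the phosphate transporter Slc34a1 (1.14), and 0 a negative one, with a median of 0.51. Slc34a1 read 10.02, 9.98 and 9.91 in wild-type against 8.90, 9.55 and 9.27 in null kidney, a difference of -0.73 that did not pass on its own (limma adjusted p = 0.0899). Its interaction call held only without wild-type stomach 1, null stomach 2 or 3 or null kidney 1 or 2. For Slc22a6 the larger part of the interaction came from stomach, where all values were under 3.6, and it was 0.67 and no longer called with values under 5 raised to 5 (limma adjusted p = 0.105). It was also lost without null stomach 1, any wild-type kidney array or null kidney 1 or 3. The summed level of the 27 genes overlapped between null and wild-type kidney, at 13.59 to 13.81 and 13.75 to 14. Collecting duct genes (18) and podocyte genes (8) had 0 called interactions each (3.37% over all tested).

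The other large interactions of kidney-only genes had their larger effect in stomach, where 162 of the 1075 probe sets rose (15.1%) and 110 fell (10.2%). Spink1, a trypsin inhibitor, Defb1, an antimicrobial peptide, Atrx, a chromatin remodeller, and 6820431F20Rik rose in null stomach by 1.43, 1.79, 1.69 and 1.60, with differences in kidney between -0.82 and -0.23, none called. Defb1 read 6.54, 6.36 and 6.82 in wild-type against 9.09, 8.31 and 7.69 in null stomach beside 10.08 to 10.49 in kidney. Qprt, an enzyme of NAD synthesis, Ptdss2, which makes phosphatidylserine, the ubiquitin-conjugating enzyme Ube2s, the tetraspanin Tspan4, the parathyroid hormone receptor Pth1r and the membrane protease Sppl2b had negative interactions between -2.91 and -1.69. In all 6 the null stomach mean lay below background. With values under 5 raised to 5, Qprt was -0.11 and Pth1r 0.45, neither called (limma adjusted p = 0.902 and 0.145); the stomach arrays of Pth1r were all below background. Pth1r also lost its call without any wild-type kidney array or null kidney 2 or 3, and that of Tspan4 held only without null stomach 2.

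Transcripts under 7 in both wild-type tissues held 149 calls (2.2% of 6781), 68 negative (1%) and 81 positive (1.19%). In this class 0.162% were called in both tissues in the same direction, and the share that fell in kidney was also 0.162%. Txnrd1, a thioredoxin reductase, read 4.97, 2.49 and 5.23 in wild-type against 7.15, 7.18 and 7.29 in null stomach, and its interaction of 4.12 was 2.72 with the floor at 5, called in both cases. Its only other probe set had the opposite sign. Mapk8ip2 (3.58) and a second probe set of Serpinb1a (3.85), and Ldb1 (-3.28) and Atpaf2 (-3.12), lost their calls with the floor, while Thrsp (-3.11), a regulator of lipid synthesis, kept it at -1.78. Its stomach difference of -1.41 did not pass in the limma fit of both tissues (adjusted p = 0.0709) and passed in a limma fit of the stomach arrays alone (adjusted p = 0.00677). The call of Thrsp held only without wild-type stomach 1, null stomach 2, wild-type kidney 1 or null kidney 2, and that of Mapk8ip2 only without wild-type stomach 1 or null kidney 1. The second Serpinb1a probe set lost its call without wild-type stomach 2 or 3 or null stomach 3.

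Genes of oxidative metabolism, known targets of the receptor family, had medians below 0 in both tissues. Called interactions were 0 to 2 in each list, where 3.37% were called over all tested and 4% in the class of both tissues. The lists thus lay near those shares. Of 33 tested complex I genes, 14 were lower in null stomach and 2, Ndufb2 and Ndufc1, in null kidney, and 0 had a called interaction. Stomach falls were 13.7% of all tested and 20.1% of the class of both tissues, which held 32 of the 33. Kidney falls were 0.264% and 0.312%. Most genes of the other lists in this paragraph were in that class too. Complex I medians were -0.29 in stomach, -0.22 in kidney and 0.00 for the interaction. Of 35 genes of complexes III, IV and ATP synthase, 14 fell and 2 rose in stomach, 1 fell in kidney and 1 interaction was called, that of Cox6c (0.76). Of 17 genes of the tricarboxylic acid cycle 8 fell in stomach and 0 in kidney. Ogdh, a subunit of the oxoglutarate dehydrogenase complex, had the 1 called interaction, reading 7.95, 7.77 and 7.84 in wild-type against 6.85, 6.88 and 6.90 in null stomach and 7.13 to 7.39 on all kidney arrays. Of 27 fatty acid oxidation genes 14 fell and 2 rose in stomach and 1, Acadm, fell in kidney, with Fabp3 and Hadh (0.56) the 2 called interactions. Of 65 genes of the mitochondrial ribosome 21 fell and 1 rose in stomach and 1 interaction, Mrpl12 (-1.31), was called. The call of Hadh held only without wild-type stomach 2 or null kidney 2, and that of Mrpl12 only without null stomach 2 or null kidney 1. More calls in stomach than in kidney are not in themselves a difference between the tissues for these genes.

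Mitosis genes had as many called interactions as those of acid secretion, among more genes. Of 34 mitosis genes, 31 fell in stomach and 1, Ube2c, in kidney, and 5 interactions were called, all negative: Birc5 (-1.03), which guards chromosome segregation, its partner kinase Aurkb (-0.74), the proliferation marker Mki67 (-0.97), the spindle protein Tpx2 (-1.38) and the condensin subunit Ncapd2 (-0.68). Mki67 read 9.62, 9.83 and 9.89 in wild-type against 8.29, 8.75 and 8.21 in null stomach, and 9.42, 9.76 and 9.70 in wild-type against 9.22, 9.43 and 9.06 in null kidney. Stomach groups stood apart, while kidney groups overlapped by 0.01. Medians were -0.84 in stomach, -0.24 in kidney and -0.55 for the interaction. Over all tested probe sets, stomach falls were 13.7%, kidney falls 0.264% and negative interactions 2%. In the class of both tissues, which held 24 of the 34, stomach falls were 20.1% and negative interactions 2.67%. Of 32 DNA replication genes 25 fell in stomach and 0 in kidney (limma), and 1 interaction was called, Mcm5 (-1.48), with a median of -0.56. Birc5 kept its call without each array. Aurkb lost it without wild-type stomach 2 or 3, null stomach 1 or 3 or any wild-type kidney array, and Mki67 without wild-type stomach 2 or 3, null stomach 1 or 3, wild-type kidney 1 or 3 or null kidney 2. Tpx2 kept it only without null stomach 2 or wild-type kidney 1, and Mcm5 only without null stomach 2 or null kidney 1. With the Gapdh covariate 0 interactions of either list were called (limma).

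Of 21 glucocorticoid-responsive and 28 immediate early genes, 0 interactions were called in either list (limma). Called interactions were 3.37% over all tested, so 0 is near that share for lists of this size. Of the 21, 17 rose in stomach (rises were 11.8% of all tested) and 7 in kidney (0.344%), with medians of 0.97 and 0.86. Sgk1, a kinase that raises sodium transport, rose by 0.97 in stomach, and stood 1.02 higher in kidney without passing (limma adjusted p = 0.0788). Fkbp5, a cochaperone of steroid receptors, showed 1.45, called, and 1.34, not called (limma adjusted p = 0.0788). Of the immediate early genes 10 rose in stomach and 2, Klf6 and Ccn2, in kidney, with medians of 0.53 and 0.52. Of 13 clock genes 5 and 2 rose and of 21 genes of starvation 9 and 1, with Pdk4 the 1 called interaction. These lists overlap: Per1, Ddit4 and Dusp1 each stand in 2 of them. With the Gapdh covariate 1 glucocorticoid-responsive gene rose in stomach and 3 in kidney. An interaction that misses the threshold does not show that the 2 tissues responded equally.

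**Figure D5:**
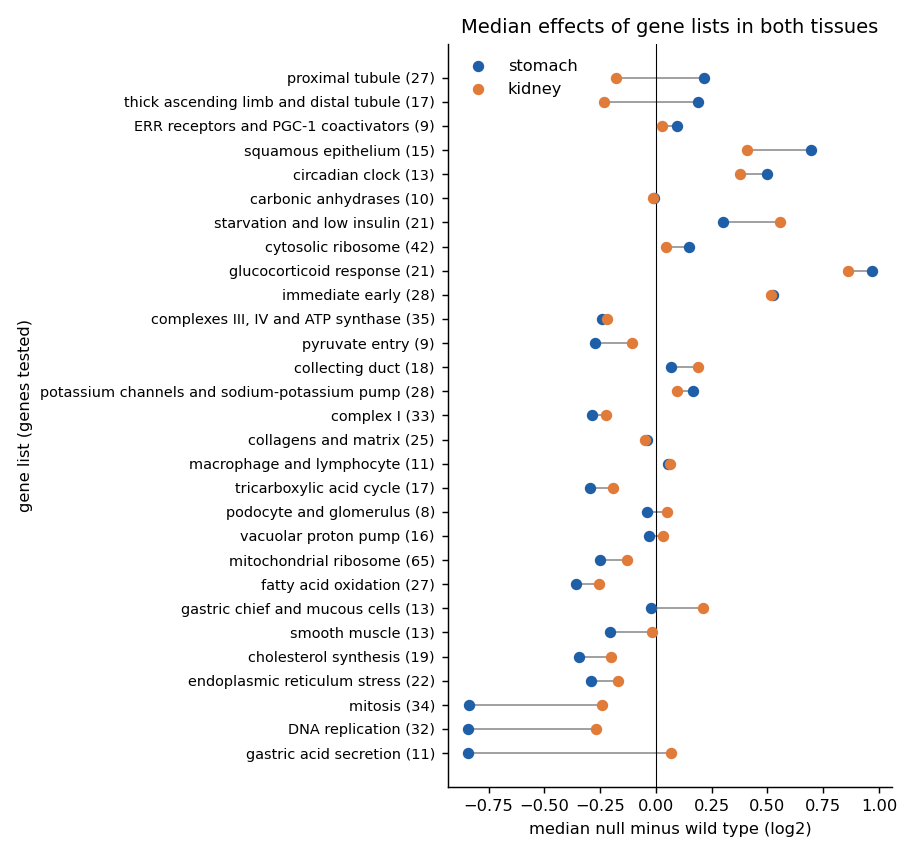
For each gene list with 8 or more tested genes, other than milk and hepatocyte transcripts, the median null minus wild-type difference (log2) in stomach (blue) and kidney (orange) is joined by a line, with the number of tested genes in brackets and lists ordered by their median interaction. Acid secretion, DNA replication and mitosis lie lowest in stomach, at -0.84 each, glucocorticoid-responsive genes lie near 0.9 in both tissues, and proximal tubule and thick limb genes lie above 0 in stomach and below 0 in kidney.

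Of 28 tested potassium channel and sodium-potassium pump genes, 2 had a called interaction, Kcnj15 and Kcnq1, both negative, and the median was 0.00. In stomach 6 of the 28 fell and 2 rose, where 13.7% of all tested probe sets fell and 11.8% rose, and in kidney 1 rose and 0 fell (limma). Of 16 vacuolar proton pump genes Atp6v1b2 (-0.84) was called, and it lost its call without wild-type stomach 2 or 3, null stomach 3, any wild-type kidney array or null kidney 3. Of 19 cholesterol synthesis genes 7 fell in stomach (13.7% over all tested), and Fdps (-1.58) was called, though not without wild-type stomach 3, null stomach 3, wild-type kidney 1 or 2 or null kidney 3. Of 13 smooth muscle genes Tagln (-0.83) was called, and held only without wild-type stomach 1, null stomach 2 or null kidney 2. Of 42 cytosolic ribosome genes, 37 of them in the class of both tissues, 10 rose and 2 fell in stomach with 0 called interactions. Over all tested 11.8% rose and 13.7% fell, and in that class 11.9% and 20.1%. Called interactions were 3.37% over all tested and 4% in that class. Of 15 squamous epithelium genes 8 rose and 2 fell, with 0 called interactions.

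Some transcripts of other tissues varied among the stomach arrays, and not all of them by group. Of 15 tested hepatocyte genes 4 fell in stomach (13.7% over all tested) and 0 interactions were called, but the median interaction was -2.61. The summed level ran from 11.61 to 14.29 in wild-type and from 11.21 to 11.93 in null stomach, so the groups overlapped. In kidney it was 11.21 to 11.87 over both groups. Of 6 pancreatic acinar genes Clps, the lipase cofactor, had a called interaction of -2.63, with 11.01, 10.69 and 10.76 in wild-type against 9.13, 8.93 and 8.88 in null stomach without overlap. The list as a whole did not move with it: the median difference in stomach was 0.29, 0 other members were called there (limma), and the summed level, 10.92 to 11.20 and 9.72 to 9.81, was mostly that of Clps. Of 6 mesothelium genes Krt19 (-1.51) was called, with summed levels of 12.31 to 12.46 and 12.21 to 12.28. The 4 erythroid, 6 fat and 11 macrophage and lymphocyte genes had 0 called interactions (3.37% over all tested). With Alb as a covariate 90 interaction calls were left in all, and without wild-type stomach arrays 2 and 3, which were high in Alb, 79, of which 67 were among the 510. All 510 kept their direction in both cases, which their selection on these same arrays favours. Whether adjoining tissue had a part in other interactions was not tested.

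The median span of a gene from start to end was 23.2 kb for genes of both tissues, 12.3 kb for those with a negative and 36.1 kb for those with a positive call. Stomach falls and rises of this class, which underlie most interactions, had 15.9 and 32.6 kb. The shared falls and rises, of any class and only 17 and 16 genes, had medians of 9.15 and 11.9 kb, against 22 kb over all tested genes. The median GC content of the promoters was 60.8%, 60% and 60.8% for the class, the negative and the positive calls. These are descriptions with no test. Within 20 Mb of Esrrg lay 8 of the 440 genes with a called interaction, 1 of the 33 with a shared call and 131 of all 9314.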

How the data were processed

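The deposited values are log2 signals of MAS5, per the submitters' processing notes; no source used here states the MAS5 version or scaling target. The base was settled from the values, whose linear 2% trimmed mean was 149.988 to 150.008 on every array; array medians of the 12 arrays were 5.94 to 6.05. Of 22690 probe sets 64 array controls were set aside. Gene symbols came from the platform table supplied with the data (20380 probe sets with 1 symbol, 691 with several, 1555 with none), and only those with 1 symbol are named. Values were used without further normalization. A probe set was tested if at least 3 of the 12 arrays reached the 40th percentile of their array, and limma 3.58.1 in R 4.3.3 (lmFit, eBayes with a mean-variance trend) was fitted to the 4 groups, with Benjamini-Hochberg adjustment over all 15125 tested probe sets in each contrast. SE is the moderated standard error of limma.

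Genes were named by a rule: the largest called interactions (10 in each direction in genes of both tissues, 6 in each single-tissue class, 3 in neither), the largest shared and the opposite responses, up to 4 members of each of 36 gene lists, and Esrrg, Atp4a, Atp4b, Kcnq1, Kcne2, Kcnj1, Klk1, Umod and Car2; genes outside it were chosen after their values were seen. A list has 1 probe set per gene, the brightest. The comparison, its members and the lists were chosen with earlier results of these data known. Alternatives were a floor at 5, other filters and normalizations, all 30 arrays, a replicate block, array weights, covariates, thresholds and levels, and leaving out each array; fits of each tissue alone and the half-site search were added after the data were seen. Data were simulated with 200 changed of 15125 probe sets. The changed ones were drawn from those whose mean signal reached the level used for expression. Noise was independent, with the same spread for a probe set in all groups. There, 57% of 2-fold and 95% of 4-fold interactions were recovered with 4 false calls, and 0 calls were made with nothing changed. These rates do not cover changes in dimmer probe sets, unequal spread between groups or the RNA quality gap of null stomach. The number of arrays limits the precision.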

Additional observations from a re-analysis of the deposited data

Results flagged for a closer look

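The effects of genotype differed between stomach and kidney, by limma's test of the interaction itself, at 510 probe sets. The named ones follow with their interaction, stomach effect minus kidney effect on the log2 scale, and no explanation was tested for any of them. Only Atp4a, Atp4b and Mal kept their calls with the Gapdh covariate. In genes of both tissues the interaction was -2.50 for Gnb2, -2.13 for Ndrg1, -1.86 for Ptbp1, -1.83 for Lactb, -1.79 for Cct7, -1.76 for Pfn1, -1.75 for Tent5c, -1.74 for Psmb7, -1.70 for Smu1 and -1.70 for Fabp3. It was 2.54 for Malat1, 1.98 for Nedd4, 1.74 for Taok1, 1.61 for Cab39, 1.43 for Ide, 1.42 for Mal, 1.40 for Fmo2, 1.39 for Klf3, 1.37 for Zfand5 and 1.33 for Nsa2.

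In genes of stomach only it was -7.19 for Csn1s2a, -5.41 for Atp4b, -4.80 for Atp4a, -4.45 for Csn2, -4.44 for Wap and -3.27 for Csn3, and 3.43 for Serpinb1a, 2.46 for Pdk4, 1.59 for Gjb2, 1.5 for Rnf227, 1.46 for Eppk1 and 1.02 for Lpp. In genes of kidney only it was -2.91 for Qprt, -2.05 for Ptdss2, -2.03 for Ube2s, -2.02 for Tspan4, -1.86 for Pth1r and -1.69 for Sppl2b, and 5.21 for Klk1, 2.25 for Spink1, 2.18 for 6820431F20Rik, 2.02 for Defb1, 1.96 for Slc22a6 and 1.92 for Atrx. With values under 5 raised to 5, Qprt (-0.11), Pth1r (0.45) and Slc22a6 (0.67) were no longer called. The call of Tspan4 held only without null stomach 2.

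Under 7 in both wild-type tissues it was -3.28 for Ldb1, -3.12 for Atpaf2 and -3.11 for Thrsp, and 4.12 for Txnrd1, 3.85 for a second probe set of Serpinb1a and 3.58 for Mapk8ip2. With the floor at 5, Ldb1, Atpaf2, Mapk8ip2 and this Serpinb1a probe set lost their calls. Opposite calls in the tissues stood behind 2.51 for Egfl6, -1.96 for Fgfbp1 and 1.10 for Acss1, though fits of each tissue alone (limma) did not call Acss1 in stomach (adjusted p = 0.0943) or Fgfbp1 in kidney (adjusted p = 0.092). Groups of 3 arrays are too small for a search for single outlying arrays.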

How the results depend on the processing

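The main counts were 510 interaction calls in all, 256 in genes of both tissues, 105 in genes of 1 tissue, 3863 stomach calls, 92 kidney calls and 39 shared calls, in that order below. With the Gapdh covariate they were 3, 1, 2 and 11, and 1 shared call; with the Alb covariate 90, 36, 29 and 1501, and 21 shared. Without both wild-type stomach arrays of high Alb they were 79, 26, 29, 577, 33 and 7. A threshold of 0.01 gave 130, 62, 32, 1727, 13 and 5, and one of 0.1 gave 1099, 555 and 213, with 228 kidney and 124 shared calls. The fit of all 30 arrays gave 69 calls in genes of 1 tissue, 52 in kidney and 21 shared; no mean-variance trend gave 165 in genes of both tissues, 41 in kidney and 16 shared; no filter gave 61 in kidney and 22 shared. The floor at 5 gave 158 in genes of 1 tissue and 147 in kidney, array weights 385 in genes of both tissues and a level of 8 in place of 7 gave 136. Other counts stayed within 1.5 times. Leaving out each array in turn gave 240 to 992, 112 to 558, 59 to 171, 2311 to 4118, 17 to 224 and 7 to 108. Fits of each tissue alone gave 3186 and 80 calls, and 33 shared. Of 202 named probe sets, 12 lost and 4 gained a stomach call and 8 lost and 4 gained a kidney call in those fits.

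Whether replicate numbers pair the tissues is not settled: deviations of same-numbered stomach and kidney arrays had correlations of 0.030, -0.019 and 0.335 among wild-type pairs and of 0.226, 0.306 and 0.072 among null pairs, where each array correlated best with its own number, as did wild-type array 3. The low Xist array had 1 number in both tissues of a genotype. With the replicate block 476 interactions were called, and 416 with the block within genotype.

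Of 74 named interaction calls, 46 held without each array in turn, 28 with the Alb covariate and 3 with the Gapdh covariate. All 74 kept their sign without each array, which their selection on these same arrays favours. The 1 reversal was Pth1r, at 0.45 with the floor, where its stomach values were all set to 5. Signals under background limit sizes of change in such genes.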
